A study of Mus musculus with 12 samples.

Results

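Remission was compared with health in microglia, the resident macrophages of the central nervous system, sorted from the spinal cord of mice with chronic-relapsing experimental autoimmune encephalomyelitis (crEAE). The members of the comparison are the 6 libraries labelled remission (3) and control (3), of 12 in the series, and 12545 of 48526 genes had enough counts to be tested. All mice, controls included, were of the Biozzi ABH strain, and the series' design text gives 1 mouse per library. Microglia were gated as CD11b positive, CD45 intermediate and Ly-6C negative cells. Remission mice were labelled crEAE in the remission phase, and control mice were labelled control for disease state and phase. Age, sex, disease score, day of sampling and what the controls received are not given in the sources used here. The question was which genes remained changed when clinical signs had eased. Levels are CPM, counts scaled to a common library size, given for replicates 1, 2 and 3 in that order, and the numbers pair no mice.

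Experimental autoimmune encephalomyelitis is an induced autoimmune attack on myelin, used as a model of multiple sclerosis, and in its chronic-relapsing form attacks are followed by recovery and by new attacks. Resting microglia are known by a set of homeostatic genes, such as P2ry12 and Tmem119, which sense and survey the tissue. Near damage or myelin debris they take up a second known programme, which includes lipid carriers, lysosomal enzymes and antigen-presenting molecules.

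Before the comparison, each library was checked for what else it held. Total counts were 3992885 to 5247752 in these 6 libraries. The 6 most abundant features held 48.3 to 56.2% of the counts in control and 56.4 to 60.4% in remission libraries, and mitochondrially encoded genes held 1.92 to 2.29% and 2.51 to 3.81%. Both shares were higher in every remission library than in any control library, and their part in the results was not tested beyond the fit without them given below. The sort markers were in place: Ptprc, which encodes CD45, stood at 463, 401 and 400.1 CPM in the control and 395, 398 and 486 CPM in the remission libraries (adjusted p 0.964), and Itgam, which encodes CD11b, at 137, 115 and 143 CPM in the control and 109, 79.2 and 112 CPM in the remission libraries (adjusted p 0.3). The gated-out antigen Ly-6C is encoded in part by Ly6c2, which had 0 counts in all control libraries and 0.369, 0 and 0.797 CPM in remission. Monocyte genes summed to 29.4 to 73.8 CPM in control and 39.6 to 40.8 CPM in remission libraries, against 1776 to 2699 CPM in the acute libraries of the same series. DESeq2, and edgeR in the fit of all 12 libraries, called 0 of their 13 tested members (background of calls 9.31% of genes). Of these 13, 3 had an unadjusted p under 0.05. In other fits edgeR called 1 higher without control replicate 3 and 1 lower without remission replicate 1. The monocyte markers F10, Ly6c2, Chil3 and Gpr141 had 0 counts in every control library.

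The first remission library stood apart by transcripts of other cells. Its 15 myelin and oligodendrocyte genes summed to 754 CPM, against 80.2 and 158 CPM in the other 2 remission libraries and 98.6, 125 and 117 CPM in controls. Mbp, which encodes myelin basic protein, stood at 33.7, 47.1 and 39.7 CPM in the control and 343, 29.5 and 40.4 CPM in the remission libraries. Mobp, another myelin protein gene, stood at 5.83, 5.43 and 7.34 CPM in the control and 64.2, 2.49 and 2.92 CPM in the remission libraries. The second remission library lay below every control for both genes, and the third lay within the control range for Mbp and below it for Mobp. The first remission library also held 43.6 CPM of neutrophil genes, against 2.10 and 1.06 CPM in the other remission libraries and at most 0.647 CPM in a control library, with S100a9 at 9.41, 0.191 and 0 and Ngp at 11.3, 0.574 and 0.266 CPM. It held 34.3 CPM of erythroid genes against 4.78 and 4.25 CPM. Astrocyte genes summed to 217 CPM there and to 147 and 99.6 CPM in the others, against 63.3 to 80.1 CPM in controls, and Gfap, the astrocyte filament gene, stood at 40.1, 2.3 and 5.05 CPM. Neuronal genes summed to 59.2 CPM in the first, 8.80 CPM in the second and 42.8 CPM in the third remission library, against 15.8 to 21.1 CPM in controls. Border macrophage genes were highest in the second remission library, at 105, 199 and 122 CPM in remission against 90.8 to 127 CPM in controls. In bulk samples, fewer cells of a type and less RNA per cell cannot be told apart.

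The third remission library stood apart in other ways. It held 7527 counts of Xist, the RNA that silences an X chromosome in female cells, at 1999 CPM, and 0 counts of the Y-linked genes Ddx3y, Eif2s3y, Kdm5d and Uty. The other 11 libraries of the series held 390 to 954 counts of these Y-linked genes and at most 4.25 CPM of Xist. It also held 1789 CPM of the 22 immediate-early genes listed, which respond within minutes to stimulation or handling, against 407 and 432 CPM in the other remission libraries and 451 to 833 CPM in controls. Because of these 2 libraries, the counts of changed genes below were also made without each of them.

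**Figure D1:**
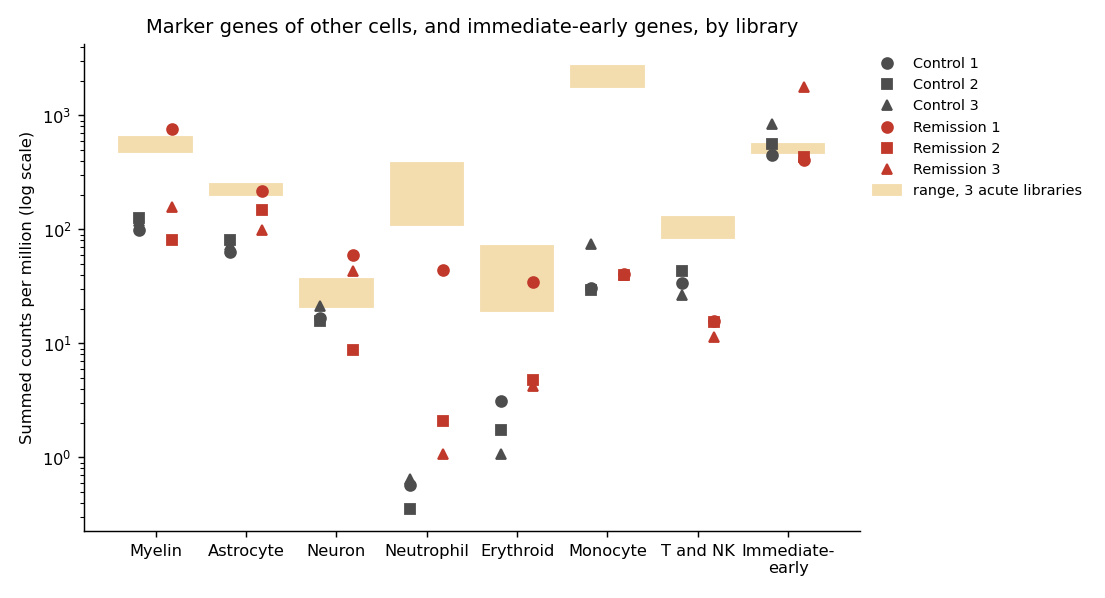
Summed level of marker genes in each control (grey) and remission (red) library, in CPM on a log scale; circles, squares and triangles are replicates 1, 2 and 3, and the shaded box is the range of the 3 acute libraries. Remission 1 is the highest of the 6 libraries for myelin (754), neutrophil (43.6) and erythroid (34.3) genes, and remission 3 for immediate-early genes (1789).

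Of the 12545 genes tested, 760 rose and 408 fell in remission (edgeR quasi-likelihood test, Benjamini-Hochberg adjusted p under 0.05), which is 6.06% and 3.25% of genes and 9.31% together. Of these, 466 rose and 173 fell by more than 2-fold, 3.71% and 1.38% of genes. In 1150 of the 1168 called genes the 3 remission libraries and the 3 control libraries did not overlap, while over all genes 14.4% lay wholly higher and 13.8% wholly lower in remission. The median change over all genes was 0.01 on the log2 scale. With library totals alone as the scale, this median moved to -0.24 and the calls became 506 higher and 1056 lower, and higher calls went from 65.1% to 32.4% of all calls. Changes are given relative to the median gene. Without the first remission library 621 genes rose and 309 fell, and 851 of these calls were among the 1168. Without the third remission library 682 rose and 317 fell, and 885 were among the 1168.

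**Figure D2:**
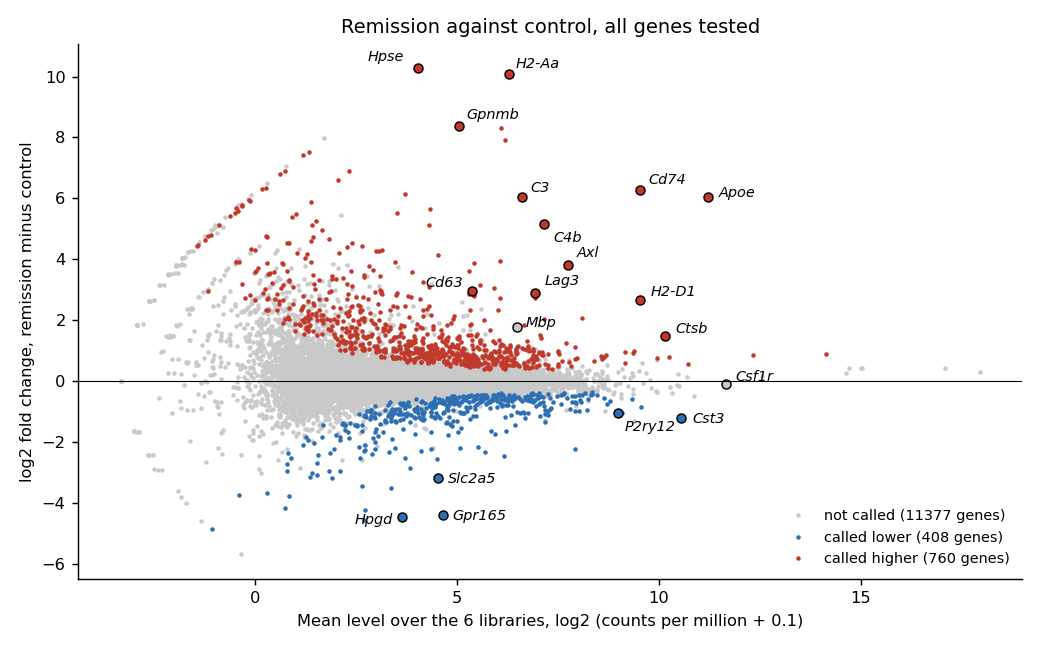
Each point is a gene tested. The x axis is its mean level over the 6 libraries as log2 of CPM plus 0.1, and the y axis is its log2 fold change, remission minus control. Red and blue points are the 760 genes called higher and the 408 called lower, and circled genes are named in the text. H2-Aa, Hpse and Gpnmb lie above 8 on the log2 scale, and Apoe and Cd74 combine a change above 6 with a high level.

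Genes of antigen presentation by major histocompatibility complex (MHC) class II were among the increases. H2-Aa (ENSMUSG00000036594, chr17:34282744-34287823 on GRCm38, protein coding), which encodes a class II alpha chain, stood at 0.142, 0 and 0.216 CPM in the control and 178, 174 and 110.0 CPM in the remission libraries. The controls held 2 counts of it in all, so the pooled ratio of 1380.3 has a counting interval of 382 to 11405 (adjusted p 5.58e-06). H2-Eb1 (chr17:34305867-34316674), a class II beta chain, stood at 0.142, 1.05 and 0 CPM in the control and 146, 158 and 103 CPM in the remission libraries (log2 fold change 8.31 ± 0.68 SE, adjusted p 5.44e-05). H2-Ab1 (chr17:34257689-34269419), the partner chain of H2-Aa, stood at 0.284, 1.05 and 0.432 CPM in the control and 179, 169 and 89.2 CPM in the remission libraries (log2 fold change 7.92 ± 0.57 SE, adjusted p 1.34e-05). Cd74, the invariant chain that escorts class II molecules to the endosome, was abundant, at 13.5, 21.6 and 21.4 CPM in the control and 1694, 1406 and 1245 CPM in the remission libraries (log2 fold change 6.28 ± 0.37 SE, adjusted p 8.73e-07). In none of these 4 genes did the groups come near each other, and the third remission library was the lowest of its group in each.

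The class II list also held the costimulatory genes Cd80, Cd86 and Cd40, the protease Ctss and the activator Ciita. Its 14 tested members gave 6 higher and 0 lower, against 6.06% and 3.25% of all genes, with a median of 1.08. Besides the 4 above, the costimulatory ligand Cd86 rose, from 40.4, 42.6 and 45.7 to 74.2, 71.5 and 74.4 CPM (log2 fold change 0.78 ± 0.12 SE, adjusted p 0.000118). H2-Oa, a chain of a peptide-loading regulator, was the other call, at 1.42, 2.45 and 1.94 CPM in the control and 6.28, 6.89 and 3.45 CPM in the remission libraries (log2 fold change 1.54 ± 0.43 SE, adjusted p 0.0244), a call lost without control replicate 1 or 3 or remission replicate 1 or 2. Members of the loading machinery did not pass: H2-DMa stood at 31.9, 27.2 and 27.2 CPM in the control and 48.9, 38.8 and 31.9 CPM in the remission libraries (adjusted p 0.144), and the protease Ctss at 1256, 1243 and 1416 CPM in the control and 1605, 1388 and 1608 CPM in the remission libraries (adjusted p 0.364). Ciita, the master activator of class II genes, stood at 2.7, 2.63 and 2.81 CPM in the control and 9.97, 14.7 and 12.2 CPM in the remission libraries, with no overlap between groups (log2 fold change 2.17 ± 0.72 SE, adjusted p 0.111), and passed with DESeq2 or with a fit of the 6 libraries alone. Cd80 and Cd40, other costimulatory genes, did not pass either (adjusted p 0.198 and 0.216). Reads were aligned to the C57BL/6J reference while the mice were Biozzi ABH, and H2 genes vary between strains and resemble each other, so the levels of single H2 genes are uncertain.

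Promoter sequences are shown for the class II genes because their known shared control element, the Y box, can be seen at a like distance from the start in each. RefSeq windows (GRCm38.p6), from 250 bases before the start to 50 after it, were present for 3 of the 6 raised members of the class II list. Matches were counted in the whole window. Only the stretch from 200 to 1 bases before the start is printed, 5′ to 3′ on the gene's strand. Capitals mark the Y box CTGATTGG, a motif chosen after the values were seen and searched on both strands.
H2-Aa (chr17:34287824-34288023, minus strand): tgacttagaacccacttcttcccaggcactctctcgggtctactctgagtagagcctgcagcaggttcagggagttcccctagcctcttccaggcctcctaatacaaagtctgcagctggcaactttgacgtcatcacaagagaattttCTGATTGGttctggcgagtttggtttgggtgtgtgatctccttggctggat
H2-Eb1 (chr17:34305667-34305866, plus strand): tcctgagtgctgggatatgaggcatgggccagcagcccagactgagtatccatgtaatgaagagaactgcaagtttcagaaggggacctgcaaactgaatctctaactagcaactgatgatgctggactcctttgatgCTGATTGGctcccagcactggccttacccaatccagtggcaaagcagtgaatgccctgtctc
H2-Oa (chr17:34092179-34092378, plus strand): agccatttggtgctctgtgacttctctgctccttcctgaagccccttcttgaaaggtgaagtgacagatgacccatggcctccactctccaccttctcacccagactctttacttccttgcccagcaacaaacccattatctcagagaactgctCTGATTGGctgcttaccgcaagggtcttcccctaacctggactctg
The Y box began at base -51 of H2-Aa, -62 of H2-Eb1 and -46 of H2-Oa, counted from the start and on the sense strand in each. It was present in 3 of these 3 genes and in 7 of the 11 raised class I genes with a window, against 4.70% of the 27025 genes with a window. In other raised sets it was in 1 of 20 damage-associated, 1 of 5 lipid, 0 of 13 lysosomal and 0 of 3 type I interferon genes. A match is a description of the sequence and does not show that a factor was bound.

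MHC class I genes, which display peptides from inside the cell, rose in most tested members. Of 17 tested, 13 rose and 0 fell, against 6.06% and 3.25% of all genes, with a median of 1.34. H2-D1 stood at 202, 189 and 211 CPM in the control and 1335, 1068 and 1421 CPM in the remission libraries (log2 fold change 2.67 ± 0.14 SE, adjusted p 8.20e-11), and H2-K1 at 28.7, 28.2 and 39.9 CPM in the control and 199.7, 181 and 256 CPM in the remission libraries (log2 fold change 2.72 ± 0.16 SE, adjusted p 3.00e-10). The nonclassical H2-Q7 rose from near absence, at 0.569, 0.35 and 1.51 CPM in the control and 40.8, 32.7 and 43.3 CPM in the remission libraries (log2 fold change 5.64 ± 0.30 SE, adjusted p 9.38e-11), and H2-Q6, with which it can share reads, rose from 6.12, 3.86 and 6.26 to 77.3, 71.7 and 89.8 CPM (log2 fold change 3.87 ± 0.17 SE, adjusted p 1.25e-11). Unlike the class II chains, these genes were not lowest in the third remission library. B2m, the common light chain, rose from 123 ± 27.1 to 289 ± 36.3 CPM (SD, n = 3), and the peptide transporter Tap1 from 35.7, 41.9 and 34.1 to 87.5, 99.3 and 97 CPM (adjusted p 1.19e-05 and 7.79e-05). Nlrc5, the known activator of class I genes, stood at 11.7, 14 and 13.4 CPM in the control and 105, 125 and 90.3 CPM in the remission libraries (log2 fold change 3.04 ± 0.19 SE, adjusted p 1.40e-09). All 3 remission libraries lay above all 3 controls for each of these genes.

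Of 31 type I interferon genes, which are mostly antiviral effectors, 5 rose and 0 fell (16.1% against 6.06% of all genes), with a median of 0.34. Oasl2, of the antiviral oligoadenylate synthetase family, rose from 4.27, 4.03 and 7.98 to 14.4, 20.9 and 21.2 CPM (log2 fold change 1.82 ± 0.30 SE, adjusted p 0.000887). The antiviral genes Ifit1, Isg15 and Mx1 did not pass, with log2 fold changes of -0.43, -0.06 and -0.03 and intervals of -1.62 to 0.75, -1.39 to 1.28 and -1.15 to 1.09. The number of raised members was 8 with DESeq2 and 3 when control replicate 1 or 3 was left out, or 2 when control replicate 2 or remission replicate 3 was. Ifi44, at 1.14, 0.526 and 0.432 CPM in the control and 2.21, 2.68 and 8.77 CPM in the remission libraries, was highest in the third remission library, and its call was lost with limma-voom and without control replicate 2 or 3 or remission replicate 3.

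Of 21 genes induced by interferon gamma 3 rose and 0 fell, although their median was 1.56 and 15 lay wholly above the controls. Over all genes tested 6.06% rose and 14.4% lay wholly above. Cd274, which encodes the inhibitory ligand PD-L1, rose from 9.39, 8.06 and 7.77 to 22, 19.3 and 26 CPM (log2 fold change 1.40 ± 0.31 SE, adjusted p 0.0105). The GTPase Iigp1 stood at 0.427, 0.526 and 0.216 CPM in the control and 7.94, 9.76 and 9.3 CPM in the remission libraries (adjusted p 0.0331), and the chemokine Cxcl9 at 0 counts in controls and 0.369, 3.06 and 1.33 CPM (adjusted p 0.032). The number of raised members depended on the fit, with 12 with the 6 libraries alone, 8 with DESeq2, 6 without the filter, 1 with limma-voom, and 1 without any of control replicates 1 to 3 or remission replicates 2 or 3. Cd274 kept its call in all 14 alternatives. Iigp1 lost it without each of the 6 libraries, with limma-voom, without the filter and when the title number entered the model, and Cxcl9 with limma-voom and without any library other than remission replicate 1.

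**Figure D3:**
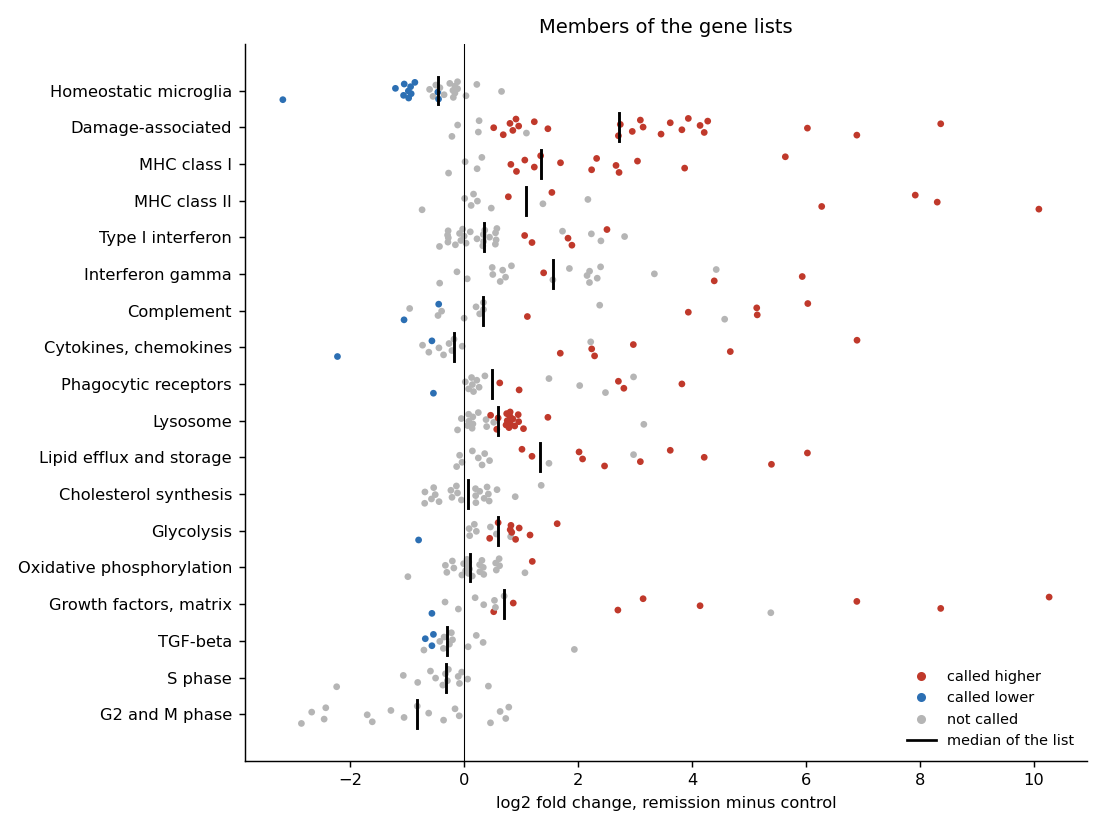
Log2 fold change, remission minus control, of every tested member of 18 gene lists. Red points were called higher, blue points called lower and grey points not called, and the black bar is the median of the list. The damage-associated median is 2.72 and the homeostatic median -0.46, while the cholesterol synthesis list has 0 called members.

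Damage-associated genes, the programme known from microglia near degenerating neurons and plaques, were raised in most tested members. Of 28 tested, 23 rose and 0 fell, with a median of 2.72, and 25 lay wholly above the controls. Over all genes tested 6.06% rose and 14.4% lay wholly above. Apoe (chr7:19696109-19699188), the lipid carrier apolipoprotein E, went from 53.3, 53.4 and 108 to 5112, 4515 and 4297 CPM, a 65.2-fold fitted change (log2 fold change 6.03 ± 0.43 SE, adjusted p 8.80e-06). Cd63, a tetraspanin of lysosomes and exosomes, was the most even, at 9.53, 8.76 and 10.1 and 74.4, 72.3 and 73.3 CPM (log2 fold change 2.95 ± 0.16 SE, adjusted p 1.41e-10). The receptor kinase Axl, which binds dying cells through a bridging ligand, went from 23.6, 20.7 and 41 to 488, 369.6 and 337 CPM (log2 fold change 3.82 ± 0.24 SE, adjusted p 1.23e-07). Csf1, the growth factor of microglia themselves, went from 11.5, 9.11 and 7.77 to 93.6, 88.8 and 71.7 CPM (log2 fold change 3.14 ± 0.21 SE, adjusted p 1.51e-08). Its receptor Csf1r did not pass, at 3180.2, 3462 and 3447 CPM in the control and 3086, 2991 and 3238 CPM in the remission libraries (interval -0.41 to 0.18).

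Within this programme the remission libraries differed. The integrin Itgax stood at 6.4, 9.99 and 8.2 CPM in the control and 168, 121 and 83.9 CPM in the remission libraries (log2 fold change 3.94 ± 0.52 SE, adjusted p 0.00133). The matrix glycoprotein Spp1 stood at 2.84, 1.58 and 3.02 CPM in the control and 70.5, 40.9 and 19.1 CPM in the remission libraries (log2 fold change 4.14 ± 0.64 SE, adjusted p 0.00378), and the lipoprotein lipase Lpl at 5.69, 3.5 and 3.02 CPM in the control and 57, 35.2 and 14.1 CPM in the remission libraries (log2 fold change 3.09 ± 0.72 SE, adjusted p 0.0298). For Itgax, Spp1, Lpl, Gpnmb, Igf1, Clec7a and Cst7 the first remission library was the highest and the third the lowest, and all 3 lay above all controls. The list as a whole lay at a median of 2.90, 2.59 and 1.92 above the control mean in the 3 libraries, on the log2 scale of CPM plus 0.5. The first of these libraries also held the myelin, neutrophil and erythroid transcripts. The third, the lowest here, held the Xist counts, no Y-linked counts and the highest immediate-early level. The part of either set of traits in this difference was not tested. Without the first library 19 members rose, and without the third 22. Lpl was lost without the first library and in 8 other fits. Trem2 and Tyrobp, the receptor and adaptor that this programme is known to depend on, did not pass: Trem2 stood at 326, 379 and 345 CPM in the control and 444, 442 and 372 CPM in the remission libraries (interval -0.10 to 0.62), and Tyrobp at 49.8, 49.2 and 53.1 CPM in the control and 60.5, 58.5 and 61.6 CPM in the remission libraries (interval -0.02 to 0.52).

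Genes of lipid export and storage rose in part. Among the 20 genes of lipid efflux and storage there were 10 rises and 0 falls, against 6.06% and 3.25% of all genes. Their median was 1.34. Abca1 and Abcg1, the pumps that load cholesterol onto apolipoproteins, went from 92.2, 90.1 and 131 to 448, 411 and 459.8 CPM and from 18.2, 21.9 and 20.3 to 92.1, 71.5 and 80.5 CPM (2.08 ± 0.26 and 2.02 ± 0.22 log2 units, SE, adjusted p 0.000172 and 1.68e-05). Soat1, which esterifies cholesterol for storage, went from 47.7, 45.6 and 50.9 to 104, 115 and 110.2 CPM (log2 fold change 1.19 ± 0.12 SE, adjusted p 8.73e-07). Fabp5, a fatty acid carrier, went from 0.569, 0.35 and 0.216 to 11.6, 6.89 and 4.78 CPM (log2 fold change 4.22 ± 0.49 SE, adjusted p 6.21e-06), and Dgat2, of triglyceride synthesis, from 2.56, 1.4 and 1.29 to 11.1, 9.95 and 9.3 CPM (log2 fold change 2.46 ± 0.35 SE, adjusted p 6.75e-05). Of 22 cholesterol synthesis genes 0 were called in either direction by edgeR in the fit of all 12 libraries, with 4 at an unadjusted p under 0.05. DESeq2 called Scd2, a fatty acid desaturase, higher, as did edgeR without remission replicate 3, and Ebp, a sterol isomerase, was called lower with library totals. Fdft1, which makes squalene, stood at 2.28, 4.38 and 2.16 CPM in the control and 5.91, 4.78 and 5.84 CPM in the remission libraries (interval 0.18 to 1.62, adjusted p 0.12).

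Of 29 lysosomal genes tested, 16 rose, 0 fell and 13 did not pass, with a median of 0.60, and 20 lay wholly above the controls (6.06% and 14.4% of all genes). With library totals alone, 9 rose. Among these rises the protease Ctsb had the largest change, from 547, 547 and 699 to 1865, 1532 and 1568 CPM (log2 fold change 1.47 ± 0.17 SE, adjusted p 4.49e-06). Grn, which encodes progranulin, went from 391, 355 and 428 to 752, 749.5 and 764 CPM (log2 fold change 0.95 ± 0.14 SE, adjusted p 0.000143), and Npc2, which hands cholesterol out of the lysosome, from 89.3, 86.6 and 96.2 to 166, 148 and 161 CPM (log2 fold change 0.80 ± 0.12 SE, adjusted p 8.86e-05). Atp6v1a, a subunit of the proton pump, went from 28.2, 25.1 and 25.9 to 54.1, 46.7 and 45.7 CPM (log2 fold change 0.89 ± 0.13 SE, adjusted p 0.000126). Gaa, the enzyme of lysosomal glycogen breakdown, went from 61.9, 65.9 and 69.5 to 154, 121 and 131 CPM (adjusted p 0.000627). Ctsd, at 800.0, 823 and 1019 CPM in the control and 1575, 1578 and 1459.8 CPM in the remission libraries (adjusted p 0.017), was lost with library totals or without control replicate 1 or 2, and Lamp1, at 177, 171 and 211 CPM in the control and 355, 302 and 280.2 CPM in the remission libraries (adjusted p 0.00169), with library totals.

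Promoters of 4 raised lysosomal genes are shown because many known lysosomal promoters carry the element TCACGTG, a binding sequence of the MiT/TFE factors. The windows searched are as above (RefSeq, GRCm38.p6). The stretch from 200 to 1 bases before the start is printed, with matches on either strand in capitals. Ctsd also held a match at base -245, outside the printed stretch.
Ctsd (chr7:142387828-142388027, minus strand): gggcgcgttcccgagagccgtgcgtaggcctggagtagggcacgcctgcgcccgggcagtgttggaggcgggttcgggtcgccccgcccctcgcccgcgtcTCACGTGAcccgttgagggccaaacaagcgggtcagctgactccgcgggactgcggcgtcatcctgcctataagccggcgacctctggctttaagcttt
Lamp1 (chr8:13158961-13159160, plus strand): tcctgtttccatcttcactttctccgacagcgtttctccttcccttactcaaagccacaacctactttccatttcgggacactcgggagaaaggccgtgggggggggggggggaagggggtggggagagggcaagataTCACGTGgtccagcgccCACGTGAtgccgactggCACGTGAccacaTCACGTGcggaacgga
Atp6v1a (chr16:44139260-44139459, minus strand): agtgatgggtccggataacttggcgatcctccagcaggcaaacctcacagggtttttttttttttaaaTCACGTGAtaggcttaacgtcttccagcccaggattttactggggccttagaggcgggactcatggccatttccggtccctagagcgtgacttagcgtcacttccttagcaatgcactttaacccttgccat
Gaa (chr11:119267763-119267962, plus strand): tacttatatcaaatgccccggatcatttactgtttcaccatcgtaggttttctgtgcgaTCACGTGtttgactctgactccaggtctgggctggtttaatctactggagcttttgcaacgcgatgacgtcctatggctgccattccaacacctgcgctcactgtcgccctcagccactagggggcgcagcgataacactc
Of the 13 raised lysosomal genes with a window 6 held TCACGTG (46.2%), namely these 4, Ctsa and Mcoln1, against 4.29% of the 27025 genes with a window. In other raised sets it was in 1 of 20 damage-associated genes (Ctsd) and in 0 of the 11 class I, 3 class II, 3 type I interferon and 5 lipid genes. Lamp1 held 4 matches, at bases -62, -45, -28 and -16. The other 2 motifs searched were the interferon-stimulated response element and TGANTCA, bound by AP-1 factors, on both strands. The response element was found in 3 of 11 raised class I genes (H2-T22, H2-T23 and B2m) against 3.99% of genes. In the other raised sets it was in 1 of 3 type I interferon, 1 of 13 lysosomal, 2 of 20 damage-associated, 0 of 3 class II and 0 of 5 lipid genes. TGANTCA was in 5 of 20 raised damage-associated genes (Cst7, Itgax, Gpnmb, Cd68 and Igf1) against 8.97%. It was also in 1 of 13 lysosomal genes and in 0 of the 11 class I, 3 class II, 3 type I interferon and 5 lipid genes. Shares among members that did not rise were not counted. Among the factors themselves Mitf rose, from 17.4, 25.1 and 25.7 to 45.4, 43.2 and 55.5 CPM (log2 fold change 1.09 ± 0.18 SE, adjusted p 0.000345), while Tfeb did not pass, at 42.2, 43.5 and 41 CPM in the control and 36.2, 37.3 and 48.1 CPM in the remission libraries (interval -0.43 to 0.30). Tfe3 did not pass either, at 88.3, 94.5 and 95.6 CPM in control and 72.2, 82.1 and 75.2 CPM in remission libraries (interval -0.55 to -0.00448, adjusted p 0.22), and its remission libraries lay wholly below the controls.

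C3, the central component whose fragments tag targets for uptake, stood at 3.27, 2.1 and 3.24 CPM in the control and 197, 178 and 196 CPM in the remission libraries (log2 fold change 6.03 ± 0.35 SE, adjusted p 3.62e-07). C4b, of the classical pathway, stood at 7.54, 4.56 and 11.7 CPM in the control and 263, 248 and 317 CPM in the remission libraries (log2 fold change 5.15 ± 0.32 SE, adjusted p 6.44e-07), and C2, its partner, at 0.142, 0 and 0.216 CPM in the control and 3.51, 6.12 and 5.31 CPM in the remission libraries, 42.8-fold when pooled (counting interval 11.4 to 360.2, adjusted p 8.19e-06). The 3 remission values of C3 and of C4b lay close together. The C1q chains, already abundant in controls, did not pass: C1qa stood at 546, 666 and 719.6 CPM in the control and 769, 793 and 880.0 CPM in the remission libraries (adjusted p 0.219). Of the receptors, C3ar1 rose from 54.2, 45.6 and 70.6 to 109, 131 and 127 CPM (log2 fold change 1.11 ± 0.14 SE, adjusted p 1.89e-05), and C5ar1 was lower, at 24.3, 16.8 and 24 against 9.04, 9.37 and 13.3 CPM (adjusted p 0.0146). In all, 5 of 17 rose and 2 fell, against 6.06% and 3.25% of all genes, with a median of 0.34. The 2 falls, C5ar1 and Cr1l, became 0 without control replicate 1 or remission replicate 1 or 2, 1 with DESeq2 or without any of the other libraries, and 4 with library totals.

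Among 18 phagocytic receptors 5 rose and 1 fell, against 6.06% and 3.25% of all genes, with a median of 0.49. Besides Axl, the scavenger collectin Colec12 went from 15.1, 8.59 and 7.77 to 76.4, 89.7 and 57.9 CPM (log2 fold change 2.80 ± 0.29 SE, adjusted p 5.45e-05), Cd300lf, a lipid-binding receptor, from 112, 123 and 132 to 191, 290.2 and 234 CPM (log2 fold change 0.97 ± 0.16 SE, adjusted p 0.000441), and the glucan receptor Clec7a from 5.26, 2.1 and 6.26 to 40.2, 27.5 and 19.9 CPM (log2 fold change 2.71 ± 0.36 SE, adjusted p 0.000395). Mertk, the relative of Axl that is known for steady-state clearance, stood at 316, 316 and 337 CPM in the control and 295, 441 and 395 CPM in the remission libraries (interval -0.09 to 0.53). The fall was Itgav, a vitronectin receptor chain, and it was lost without control replicate 1. Of 5 Fc receptor genes 0 were called by edgeR in the fit of all 12 libraries and 1 by DESeq2. Their median was 0.03, and 2 had an unadjusted p under 0.05. Fcgr4 stood at 1.28, 2.45 and 2.59 CPM in the control and 6.64, 3.83 and 9.3 CPM in the remission libraries (adjusted p 0.0593) and passed with DESeq2, without the filter, with library totals, with the 6 libraries alone and without remission replicate 2. Fcgr3 stood at 95.2, 96.6 and 113 CPM in the control and 76.6, 84.4 and 69.9 CPM in the remission libraries (adjusted p 0.0669). It was called lower with library totals, with limma-voom and with the 6 libraries alone. Fcgr1 was called lower with library totals, without the filter and with the 6 libraries alone.

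In the cytokine and chemokine list, the genes that rose were chemokines. The list of 17 cytokines and chemokines held 6 rises and 2 falls, against 6.06% and 3.25% of all genes. Its median was -0.18. Cxcl16 went from 11.1, 11 and 12.3 to 39.9, 32.7 and 38.2 CPM (log2 fold change 1.69 ± 0.17 SE, adjusted p 9.02e-07), Ccl3 from 0.996, 2.1 and 2.81 to 17.4, 8.99 and 18.9 CPM (log2 fold change 2.97 ± 0.52 SE, adjusted p 0.00147), and Ccl5 from 0.427, 0 and 0.216 to 7.2, 3.06 and 9.56 CPM (log2 fold change 4.67 ± 0.69 SE, adjusted p 0.00022). Cxcl13, a B cell attractant, had 0 counts in controls and 2.21, 4.02 and 3.19 CPM in remission, at least 18.1-fold higher (adjusted p 1.50e-05). Cxcl14 and Ccl4 were the other 2, and Ccl4 was lost with limma-voom and without any library other than remission replicate 2. Il6 was lower, at 5.97, 8.41 and 4.32 against 1.48, 1.15 and 1.33 CPM (log2 fold change -2.22 ± 0.54 SE, adjusted p 0.00969), and Tgfb1 at 78.9, 115 and 112 against 82.5, 60.6 and 63.2 CPM (log2 fold change -0.57 ± 0.16 SE, adjusted p 0.0314). Of these 2 falls 0 were called without control replicate 2, and 1 without control replicate 3 or remission replicate 2 or 3. Il1b stood at 2.56, 3.15 and 4.32 CPM in the control and 2.03, 2.68 and 4.25 CPM in the remission libraries and Tnf at 1.85, 3.86 and 6.04 CPM in the control and 2.21, 3.06 and 1.33 CPM in the remission libraries, and neither passed (adjusted p 0.874 and 0.361). The median of the list turned to 0.02 without control replicate 3 and to 0.05 without remission replicate 1.

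Of 20 genes of NF-kB signalling and innate sensing 5 rose and 1 fell, against 6.06% and 3.25% of all genes. Their median was 0.33. Tlr2, a receptor for bacterial lipopeptides, went from 79.9, 75.2 and 82.2 to 155, 136 and 182 CPM (log2 fold change 0.99 ± 0.14 SE, adjusted p 9.02e-05), and it was the only rise of the list that kept its call with library totals alone. The fall was the inflammasome sensor Nlrp3, from 74.3, 93.2 and 99.3 to 56.9, 56.2 and 62.7 CPM (log2 fold change -0.60 ± 0.16 SE, adjusted p 0.0178). Raised members numbered 3, 1 and 2 when control replicates 1, 2 and 3 were left out in turn, and 2 when remission replicate 3 was. Fallen members numbered 0 without control replicate 2 or 3 or remission replicate 1 or 2, and 2 without remission replicate 3 or with library totals.

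Of the secreted growth and matrix genes, 8 of 17 tested rose and 1 fell, against 6.06% and 3.25% of all genes, with a median of 0.70. Some of these rises, among them Gpnmb and Igf1, were also counted in the damage-associated list. Hpse (ENSMUSG00000035273), which cleaves heparan sulfate in the matrix, had 0 counts in all control libraries and 37.7, 32.9 and 27.1 CPM in remission (adjusted p 2.42e-08). It was at least 192-fold higher, against a floor of 3 counts over the 3 control libraries. Gpnmb, a glycoprotein of phagocytes, stood at 0.142, 0.175 and 0.216 CPM in the control and 83.1, 80.7 and 31.9 CPM in the remission libraries, with 3 counts in controls in all and a pooled ratio of 399 (counting interval 136 to 1936, adjusted p 0.000528). It did not pass with limma-voom. Igf1, an insulin-like growth factor known to act on oligodendrocytes, stood at 0.142, 0 and 0 CPM in the control and 13.5, 10.3 and 5.58 CPM in the remission libraries, with 1 control count in all and a pooled ratio of 178 (counting interval 31.5 to 7094, adjusted p 9.63e-07). The membrane protease Mmp14 went from 19.2, 26.6 and 25.9 to 42.1, 48.6 and 38.8 CPM (log2 fold change 0.86 ± 0.19 SE, adjusted p 0.00498). The fall was Tgfb1, which was not called without control replicate 2 or 3 or remission replicate 2 or 3.

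Homeostatic genes were partly reduced. Of 26 tested, 11 fell and 0 rose (42.3% against 3.25% of all genes), with a median of -0.46 and 14 wholly below the controls. P2ry12, the receptor by which microglia sense nucleotides, stood at 573, 746 and 719 CPM in the control and 334, 312 and 328 CPM in the remission libraries (log2 fold change -1.06 ± 0.16 SE, adjusted p 0.000189). Its relative P2ry13 stood at 367, 410.2 and 398 CPM in the control and 217, 205 and 191 CPM in the remission libraries (log2 fold change -0.94 ± 0.15 SE, adjusted p 0.000163), and Tmem119 at 894, 1007 and 1016 CPM in the control and 458, 579 and 564 CPM in the remission libraries (log2 fold change -0.87 ± 0.15 SE, adjusted p 0.000649). Cst3, a secreted protease inhibitor, stood at 1586, 2382 and 2309 CPM in the control and 972, 858 and 888 CPM in the remission libraries (log2 fold change -1.21 ± 0.17 SE, adjusted p 8.73e-05), Selplg at 648, 749.8 and 809 CPM in the control and 315, 395 and 353 CPM in the remission libraries (log2 fold change -1.05 ± 0.16 SE, adjusted p 0.000106) and Siglech at 308, 363 and 363 CPM in the control and 178, 179 and 167 CPM in the remission libraries (log2 fold change -0.98 ± 0.13 SE, adjusted p 4.06e-05). These genes fell to between 0.43 and 0.55 of the control level, and the 3 remission libraries lay close together. The fructose transporter Slc2a5 fell most in the list, from 38.5, 44 and 40.1 to 3.51, 4.78 and 5.31 CPM (log2 fold change -3.18 ± 0.30 SE, adjusted p 8.07e-07).

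Other microglial genes of this list did not pass. Cx3cr1, the fractalkine receptor, stood at 2068, 2302 and 2214 CPM in the control and 1579, 1498 and 1588 CPM in the remission libraries, with no overlap between groups (log2 fold change -0.50 ± 0.17 SE, adjusted p 0.0827), and passed with DESeq2, limma-voom, library totals, no filter, or the 6 libraries alone. The transcription factor Sall1 stood at 257, 342 and 319 CPM in the control and 250.5, 279 and 239.9 CPM in the remission libraries (interval -0.67 to 0.17). The per-library medians of the list relative to the control mean were -0.48, -0.56 and -0.45 in the remission libraries, and the library with many myelin transcripts lay between the other 2.

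Regulators of microglial identity gave 4 higher and 2 lower of 20, against 6.06% and 3.25% of all genes, with a median of -0.06. Bhlhe40, a factor of lipid handling and clearance in macrophages, was the largest, at 0.711, 0.526 and 1.29 CPM in the control and 21.8, 12.8 and 12.7 CPM in the remission libraries (log2 fold change 4.25 ± 0.36 SE, adjusted p 1.55e-07). Hif1a, the hypoxia factor, went from 43, 41.2 and 45.3 to 114, 81.1 and 95.6 CPM (log2 fold change 1.17 ± 0.20 SE, adjusted p 0.000853), and Rxra from 44.8, 44.3 and 47.3 to 67.6, 71.5 and 76 CPM (log2 fold change 0.66 ± 0.13 SE, adjusted p 0.00208), the latter lost with library totals. Mitf was the other rise. Maf was lower, at 145, 179 and 169 against 84.7, 94.7 and 119 CPM (log2 fold change -0.73 ± 0.15 SE, adjusted p 0.00356), as was Mef2c, at 321, 320.2 and 299 against 245, 211 and 233 CPM (adjusted p 0.0326), which was lost when any of the 6 libraries was left out. Irf8, needed for microglia to form, stood at 337, 372 and 373 CPM in the control and 349.6, 404 and 328 CPM in the remission libraries (interval -0.32 to 0.32). Fallen members numbered 7 with library totals, 5 without the filter or with the 6 libraries alone, 4 with limma-voom, and 1 without any library other than remission replicate 3. The median of the list was 0.02 without remission replicate 1.

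Of 14 genes of TGF-beta signalling, which maintains the homeostatic state, 3 fell and 0 rose, with a median of -0.31. Over all genes tested 3.25% fell and 6.06% rose. In this list 8 genes lay wholly below and 2 wholly above the controls, against 13.8% and 14.4% of all genes. The coreceptor Eng stood at 64.9, 67.6 and 76.6 CPM in the control and 44.9, 40.9 and 44.4 CPM in the remission libraries (log2 fold change -0.68 ± 0.16 SE, adjusted p 0.00783), and this call was lost without control replicate 3. Itgav and Tgfb1 were the others. The receptor Tgfbr1 stood at 1079, 1096 and 1162 CPM in the control and 790.4, 915 and 908 CPM in the remission libraries (interval -0.63 to -0.07, adjusted p 0.118), and Smad3 at 104, 109.9 and 97.7 CPM in the control and 78.4, 62.6 and 91.4 CPM in the remission libraries (interval -0.73 to -0.13, adjusted p 0.0717). Fallen members numbered 7 with the 6 libraries alone, 6 with library totals, 5 with limma-voom or without the filter, and 1 without control replicate 3. Raised members numbered 1 with DESeq2, with limma-voom, without the filter or with the 6 libraries alone.

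**Figure D4:**
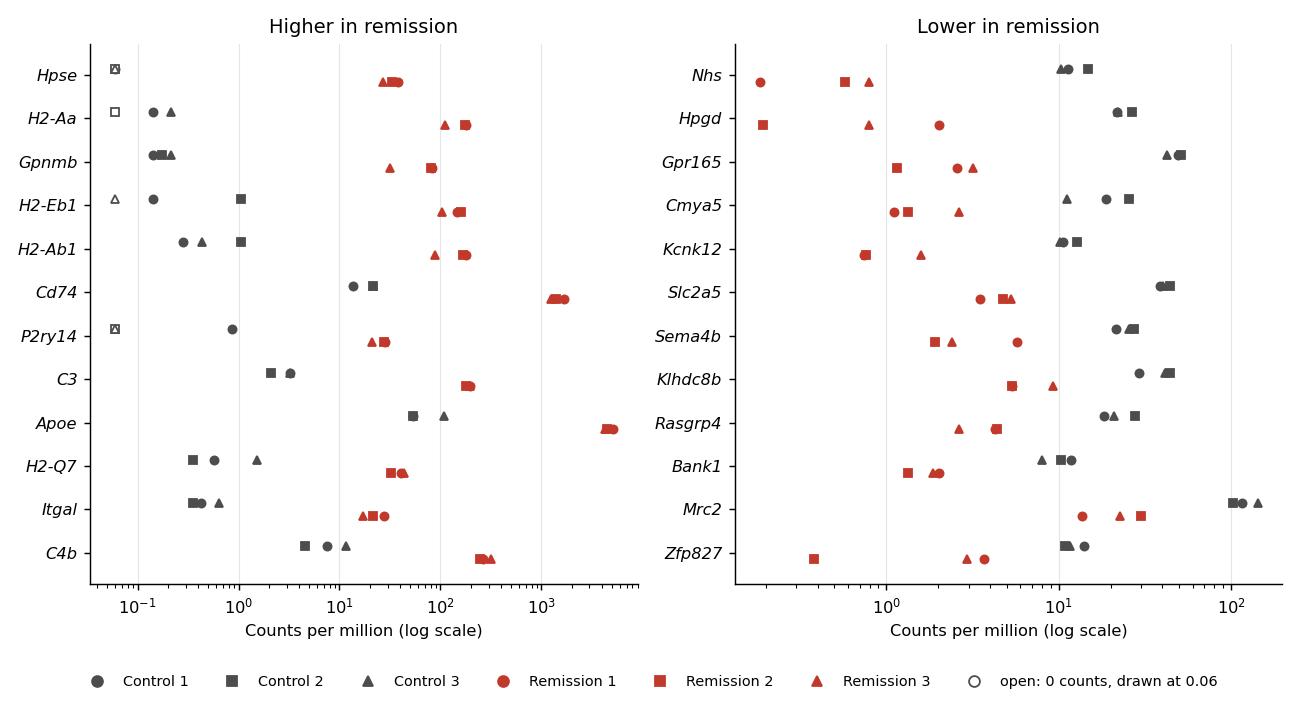
Level in each library, in CPM on a log scale, of the 12 genes with the largest called increase (left) and the 12 with the largest called decrease (right) among genes whose higher group averaged 10 CPM or more and whose groups did not overlap; grey symbols are controls, red symbols remission, and open symbols hold 0 counts. The rule chose genes without overlap, with H2-Aa at 110 to 178 in remission and Gpr165 at 1.15 to 3.19.

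Among genes whose higher group averaged 10 CPM or more, the largest decreases were in genes of varied role. The orphan receptor Gpr165 (ENSMUSG00000031210, chrX:96713441-96719388) stood at 49.4, 51 and 42.7 CPM in the control and 2.58, 1.15 and 3.19 CPM in the remission libraries (log2 fold change -4.40 ± 0.40 SE, adjusted p 2.10e-06), 21.1-fold lower. Nhs stood at 11.4, 14.9 and 10.4 CPM in the control and 0.185, 0.574 and 0.797 CPM in the remission libraries (log2 fold change -4.56 ± 0.57 SE, adjusted p 1.51e-05). Hpgd (chr8:56294585-56321043), the enzyme that inactivates prostaglandins, stood at 21.8, 26.6 and 22 CPM in the control and 2.03, 0.191 and 0.797 CPM in the remission libraries (log2 fold change -4.47 ± 0.42 SE, adjusted p 4.67e-07). All 3 stood at or below 3.19 CPM in every remission library. Mrc2, a collagen uptake receptor, fell from a higher level, 116, 102 and 143 to 13.7, 29.8 and 22.6 CPM (log2 fold change -2.45 ± 0.34 SE, adjusted p 0.00103). Cmya5 stood at 18.9, 25.8 and 11.2 CPM in the control and 1.11, 1.34 and 2.66 CPM in the remission libraries (log2 fold change -3.50 ± 0.42 SE, adjusted p 1.06e-05), and Sema4b, a semaphorin, at 21.5, 27.3 and 25.7 CPM in the control and 5.72, 1.91 and 2.39 CPM in the remission libraries (log2 fold change -2.85 ± 0.31 SE, adjusted p 2.60e-06). The remaining 5 by the naming rule besides Slc2a5 were Kcnk12, a potassium channel, Klhdc8b, Rasgrp4, Bank1 and Zfp827, with log2 fold changes of -3.46, -2.55, -2.53, -2.52 and -2.39.

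Of the largest increases under the same level rule not yet described, P2ry14, a receptor for sugar nucleotides, stood at 0.853, 0 and 0 CPM in the control and 28.4, 27.4 and 21.2 CPM in the remission libraries (log2 fold change 6.13 ± 0.48 SE, adjusted p 3.77e-07). Itgal, an integrin chain of leukocyte adhesion, stood at 0.427, 0.35 and 0.647 CPM in the control and 27.5, 21.6 and 17 CPM in the remission libraries (log2 fold change 5.51 ± 0.80 SE, adjusted p 0.00214). Itgal is also abundant in lymphocytes and monocytes. Of the 17 T and NK cell genes listed 8 could be tested, and 0 rose and 1 fell, against 6.06% and 3.25% of all genes. Cd3e, Cd3g and Cd2 held 0 counts in 5 of the 6 libraries and 0.185 CPM in the first remission library. Cd4, which some myeloid cells also express, held 0 counts in controls and stood at 0.923, 0 and 0.531 CPM in remission (adjusted p 0.0718), and it was called higher with DESeq2, without the filter and without remission replicate 2. The median of the 8 tested members was 1.84, or 0.59 over the 5 with more than 3 counts in a group and with Cd4 at its bound. The part of such cells in the rise of Itgal was not tested. The summed T and NK level was 26.8 to 43.5 CPM in control and 11.4 to 15.7 CPM in remission libraries, and in controls most of it came from Il7r, which fell from 27.2, 35.7 and 22.7 to 5.17, 7.08 and 5.05 CPM (log2 fold change -2.30 ± 0.33 SE, adjusted p 0.000167).

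Glycolytic genes rose in part. Of 17 glycolytic genes 9 rose and 1 fell, against 6.06% and 3.25% of all genes, with a median of 0.60. Pkm, pyruvate kinase, went from 45.2, 48.2 and 66 to 112, 101 and 97.5 CPM (log2 fold change 0.97 ± 0.15 SE, adjusted p 0.000147), Aldoa, aldolase, from 41.7, 38.2 and 40.1 to 84, 70.0 and 70.4 CPM (log2 fold change 0.90 ± 0.14 SE, adjusted p 0.000135), Gpi1 from 48.5, 52 and 41.4 to 81.4, 85.1 and 82.6 CPM (log2 fold change 0.81 ± 0.12 SE, adjusted p 0.000115) and Pgk1 from 5.97, 7.89 and 8.42 to 19.2, 10.9 and 19.4 CPM (log2 fold change 1.16 ± 0.24 SE, adjusted p 0.00311). The fall was Hk1, a hexokinase, from 14.5, 14.9 and 19.2 to 9.6, 9.76 and 8.23 CPM (log2 fold change -0.80 ± 0.19 SE, adjusted p 0.00917). Raised members numbered 5 with library totals and 5 without control replicate 2, and the fall was lost without control replicate 3. Of 25 nuclear genes of oxidative phosphorylation 1 rose (Cox8a, adjusted p 0.032) and 0 fell, against 6.06% of all genes higher, with a median of 0.09, which turned to -0.15 with library totals. The rise was lost there and without control replicate 1 or 2 or remission replicate 1 or 3.

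Both ferritin genes rose. Ferritin heavy chain Fth1 stood at 60.0, 58.2 and 87.6 CPM in the control and 210.4, 155 and 224 CPM in the remission libraries (log2 fold change 1.52 ± 0.18 SE, adjusted p 1.73e-05), and light chain Ftl1 at 51.1, 46.1 and 53.1 CPM in the control and 107, 92.6 and 126 CPM in the remission libraries (log2 fold change 1.12 ± 0.13 SE, adjusted p 8.54e-06). The importer Slc11a2 went from 16.1, 15.9 and 11.9 to 47.8, 28.9 and 37.5 CPM (log2 fold change 1.37 ± 0.21 SE, adjusted p 0.000136). The exporter Slc40a1, ferroportin, was lower, at 82.1, 87.3 and 92.8 against 43.7, 54.1 and 53.1 CPM (log2 fold change -0.80 ± 0.21 SE, adjusted p 0.0261), a call lost without any of control replicates 1 to 3 or remission replicates 1 or 3. In all 4 of 13 iron and heme genes rose and 1 fell, against 6.06% and 3.25% of all genes. Their median of -0.13 turned to 0.13 without control replicate 1 and to 0.05 without remission replicate 3. Of 17 oxidase and antioxidant genes 1 rose, Cybb, the catalytic subunit of the phagocyte oxidase, from 13.4, 6.66 and 15.5 to 40.2, 49.5 and 35.9 CPM (log2 fold change 1.83 ± 0.31 SE, adjusted p 0.00235). A second member rose without the filter or with the 6 libraries alone, and the median was -0.02. This count is close to the 6.06% of all genes that rose.

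Of 14 S phase and 17 G2 and M phase genes tested, edgeR called 0 in the fit of all 12 libraries, with 3 in each list at an unadjusted p under 0.05. DESeq2 called 1 lower in each list, as did edgeR with the 6 libraries alone. With library totals 2 S phase genes and 1 G2 and M phase gene fell, and without the filter 1 and 2. Their medians were -0.31 and -0.82. Mki67, the proliferation marker, stood at 8.53, 8.06 and 7.98 CPM in the control and 7.2, 2.87 and 1.06 CPM in the remission libraries (interval -3.25 to 1.14), and Cenpf, a kinetochore protein, at 4.69, 3.33 and 2.81 CPM in the control and 0.738, 0.383 and 0.266 CPM in the remission libraries with no overlap between groups (adjusted p 0.0949). Cenpf passed with DESeq2, with library totals, without the filter and with the 6 libraries alone. The interval of Mki67 spans changes in both directions.

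Immediate-early genes depended on the third remission library. Atf3, a stress factor, rose in all 3 remission libraries, from 4.55, 4.21 and 6.91 to 18.1, 18.9 and 30.0 CPM (log2 fold change 2.10 ± 0.31 SE, adjusted p 0.00017). Egr1 stood at 4.84, 17.3 and 19.4 CPM in the control and 21, 23.7 and 141 CPM in the remission libraries (adjusted p 0.177), and Dusp1, a phosphatase that ends such signals, at 9.53, 13.1 and 34.3 CPM in the control and 13.8, 19.1 and 147 CPM in the remission libraries (adjusted p 0.372). In these 2 genes the third remission library was several times above every other library. Of 20 tested 4 rose and 0 fell, against 6.06% and 3.25% of all genes, with a median of 0.68. Without that library 2 rose and 3 fell, and the median was -0.46. Raised members also numbered 2 with the 6 libraries alone, and 2, 2 and 1 when control replicates 1, 2 and 3 were left out in turn.

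The myelin genes themselves were tested as a check on the first remission library. Of 12 tested genes 0 were called by edgeR in the fit of all 12 libraries and 1 by DESeq2. Their median was 2.14, and 4 had an unadjusted p under 0.05. Without the filter edgeR called 2 higher. Mag stood at 12.8, 14.5 and 13.4 CPM in the control and 52.2, 12.8 and 14.6 CPM in the remission libraries, Cnp at 18.8, 25.1 and 22.4 CPM in the control and 38.2, 14.5 and 29.5 CPM in the remission libraries, Ugt8a, of myelin lipid synthesis, at 0.853, 0.876 and 0.647 CPM in the control and 12.9, 0 and 2.92 CPM in the remission libraries, and Sox10, a factor of the oligodendrocyte lineage, at 0.853, 0.175 and 0.432 CPM in the control and 7.2, 0.383 and 0.531 CPM in the remission libraries. Mog and Mal were likewise highest in that library, at 11.3, 0 and 3.45 and 10.9, 0.191 and 3.98 CPM in remission. Cldn11 and Ermn stood at 9.04, 0.957 and 2.66 and 5.35, 0.191 and 2.12 CPM, and Trf, which other cells also express, at 9.78, 7.46 and 7.17 CPM. Without that library the median of the list was -0.00 and 1 member, Mobp, was called lower. Without the second remission library, which held the least, 6 members were called higher. Changes described above for Apoe, Cd74, H2-Aa, Axl, C3, Cst3 and P2ry12 kept their calls in each of the fits without a library.

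Markers of other cells were tested in the same fit, in which 6.06% of all genes were called higher and 3.25% lower. Of 7 astrocyte genes 2 rose, Aldh1l1 from 1.85, 3.5 and 2.16 to 6.83, 6.89 and 5.05 CPM and Slc1a3, a glutamate transporter, from 35.4, 46.6 and 41.6 to 72.9, 129.5 and 73.3 CPM (adjusted p 0.0161 and 0.0451). Gfap did not pass, and neither rise was called without control replicate 1 or 3 or remission replicate 1 or 2. The list's median was 1.16. Without remission replicate 1 the median was -0.18, and 0 members were called higher and 1 lower. Of 4 endothelial and pericyte genes 1 rose, Flt1, a receptor for vascular growth factor, from 0.711, 0.876 and 1.29 to 15.3, 16.5 and 6.64 CPM (log2 fold change 3.78 ± 0.52 SE, adjusted p 0.000287). Pecam1, a defining endothelial gene, stood at 3.41, 3.86 and 2.81 CPM in the control and 1.11, 1.53 and 1.86 CPM in the remission libraries. Of 5 dendritic cell genes Flt3 rose and Fscn1 fell, the latter from 169.8, 194 and 189 to 91.4, 75.4 and 80.7 CPM (log2 fold change -1.16 ± 0.15 SE, adjusted p 2.09e-05), and the rise of Flt3 was lost with limma-voom, with the 6 libraries alone and without control replicate 2 or 3 or remission replicate 1. Of 3 erythroid genes Hba-a1 rose (adjusted p 0.0189), a call lost with limma-voom, with the 6 libraries alone and without any control replicate or remission replicate 1. Of 5 neuronal genes Eno2 rose, from 2.7, 2.63 and 2.59 to 7.01, 4.97 and 7.7 CPM (adjusted p 0.0198), a call lost with library totals and without any library other than remission replicate 2. Of 9 neutrophil genes 0 were called by edgeR in the fit of all 12 libraries and 1 by DESeq2, with 2 at an unadjusted p under 0.05. In other fits edgeR called 3 higher without the filter, 2 with the title number as a covariate and 1 with the 6 libraries alone. Schwann cell genes were too low to test. In the fit of all 12 libraries edgeR called 0 of the 2 border macrophage, 2 B cell and 4 sex-linked genes tested. Ighm, of the B cell list, was called lower with library totals, without the filter, with the 6 libraries alone and without control replicate 1. F13a1, of the border macrophage list, was called lower with library totals.

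The same model gave remission against the other disease phases. Between remission and the acute phase 36.9% of genes were called, 17.6% higher and 19.4% lower in remission, and between remission and the chronic phase 1.2%, 0.263% higher and 0.941% lower. These contrasts share the remission libraries with the comparison above, so for members only their own values are given, side by side. Levels of a gene are listed as mean ± SD (n = 3), in the order control, acute, remission and chronic. Acute libraries also held 1776 to 2699 CPM of monocyte genes and 110 to 382 CPM of neutrophil genes, and their part in these differences was not tested.

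Some genes were higher in remission than in the acute phase. Apoe gave 71.6 ± 31.5, 1279 ± 396, 4641 ± 422 and 4126 ± 1533 CPM, with a remission minus acute log2 fold change of 1.86 ± 0.35, adjusted p 0.00205. Lag3, an inhibitory receptor that binds class II, gave 28.7 ± 1.31, 19.8 ± 5.77, 215 ± 26 and 115 ± 42.3 CPM, with 3.44 ± 0.27, adjusted p 4.35e-07 against acute and 0.89 ± 0.23, adjusted p 0.0777 against chronic. Igf1 gave 0.0474 ± 0.0821, 0.657 ± 0.475, 9.79 ± 3.98 and 18.7 ± 6.43 CPM (3.90 ± 0.53, adjusted p 9.02e-06 against acute). Lama3, a laminin chain, gave 0.52 ± 0.157, 0.472 ± 0.362, 11.8 ± 3.46 and 22.1 ± 12 CPM (4.61 ± 0.64, adjusted p 3.17e-05 against acute). Lama3 and Lag3 were chosen after their values were seen, and their acute means lay below their control means.

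Other genes were lower in remission than in the acute phase but above control. C3 gave 2.87 ± 0.665, 480.4 ± 15.7, 190.0 ± 10.8 and 146 ± 72.9 CPM (-1.34 ± 0.25, adjusted p 0.00108 against acute), and Cybb 11.9 ± 4.63, 559 ± 126, 41.9 ± 6.99 and 49.4 ± 14.1 CPM (-3.73 ± 0.29, adjusted p 1.45e-06). H2-Aa gave 0.119 ± 0.11, 453 ± 57.9, 154 ± 38.3 and 317 ± 157 CPM (-1.55 ± 0.31, adjusted p 0.00305 against acute, -1.04 ± 0.31, adjusted p 0.147 against chronic). C4b, with 7.92 ± 3.56, 446 ± 129, 276 ± 36.4 and 758 ± 147 CPM, and Cxcl13, with 0 ± 0, 1.11 ± 0.347, 3.14 ± 0.902 and 20.6 ± 4.75 CPM, were lower in remission than in the chronic phase (adjusted p 0.0217 and 0.000596). Cxcl13 was higher in remission than in the acute phase (1.49 ± 0.45, adjusted p 0.0143).

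The homeostatic genes P2ry12, Cst3 and Slc2a5 lay between their acute and control levels. P2ry12 gave 679 ± 93, 66.5 ± 18.8, 325 ± 11.3 and 261 ± 32.4 CPM, so remission lay above acute (2.29 ± 0.18, adjusted p 1.09e-08), and its difference from chronic did not pass (0.32 ± 0.16, adjusted p 0.364). Cst3 gave 2092 ± 439.9, 145 ± 25.9, 906 ± 59.1 and 1062 ± 207 CPM (2.65 ± 0.18, adjusted p 3.03e-09 against acute). Slc2a5 gave 40.9 ± 2.8, 0.736 ± 0.193, 4.53 ± 0.928 and 17.5 ± 9.48 CPM and was lower in remission than in the chronic phase (-1.95 ± 0.31, adjusted p 0.00531). Gpr165 gave 47.7 ± 4.38, 0.264 ± 0.266, 2.31 ± 1.05 and 1.21 ± 1.17 CPM, low in every disease phase. Mcm6, of DNA replication, gave 3.47 ± 0.502, 10.1 ± 0.952, 1.61 ± 0.473 and 13.8 ± 8.9 CPM, lower in remission than in either disease phase (adjusted p 8.30e-05 and 0.00112).

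**Figure D5:**
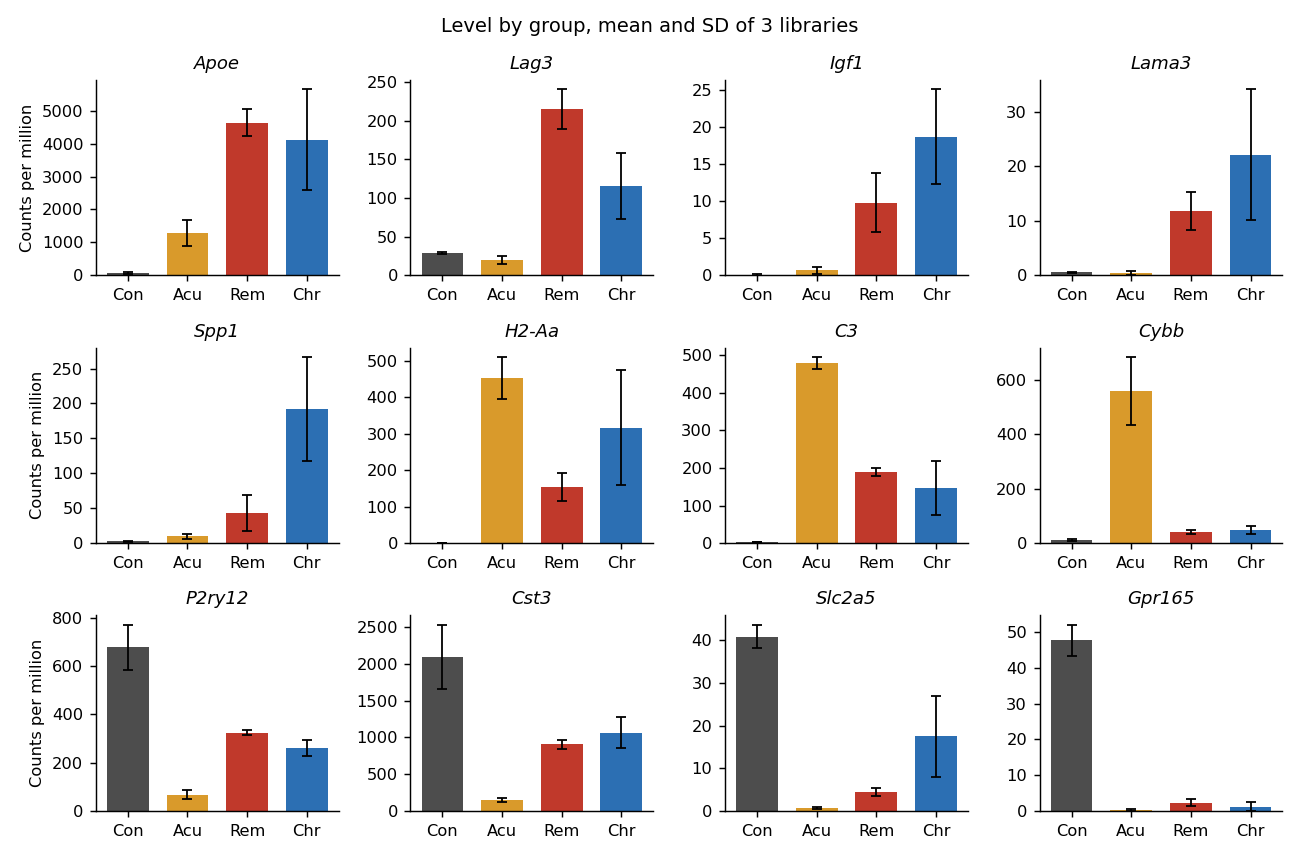
Mean level of 12 genes in control (Con), acute (Acu), remission (Rem) and chronic (Chr) libraries, in CPM on linear axes that start at 0; error bars are SD over 3 libraries. Apoe and Lag3 are higher in remission than in the acute phase, C3 and Cybb are lower, and P2ry12 and Cst3 lie between the acute and control levels.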

How the data were processed

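RNA of sorted spinal cord microglia was sequenced as single 75-base reads after random priming and a transposase library kit that keeps no strand, per the labels' protocols. The submitters' processing notes name HISAT2, GRCm38, SAMtools 1.3.1, Picard 2.6.4 and HTSeq 0.6.1. The version of HISAT2, the HTSeq settings and the annotation release are not given in the sources used here. The deposited files hold whole-number read counts per gene with no normalization. The series table matched the 12 single files in every gene. Of 48526 gene IDs, 48144 were found in GENCODE M21 (GRCm38), which gave symbols and positions; the others held 0.0208% of counts.

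Genes were kept by edgeR's default filter (12545), scaled by TMM, and fitted with 1 robust quasi-likelihood model of 4 groups over all 12 libraries (edgeR 4.0.16, R 4.3.3). The contrasts were remission minus control, acute and chronic. P-values were adjusted by Benjamini-Hochberg over all genes, with calls at 0.05. Intervals of a fold change are 95%. CPM uses the TMM-scaled library size of the tested genes. Where the controls held 0 counts, the fold is a bound from a floor of 3 counts over the 3 libraries (0.173 CPM); where they held 1 to 3, the ratio has an exact 95% counting interval. Both cover counting error only, as reads carried no molecular identifiers. Total counts were 3992885 to 5247752 in the 6 libraries, of which 1442371 to 2496096 lay outside the 6 most abundant features and mitochondrial genes. A simulation of this contrast (11600 genes tested) set 50 genes to change at each fold. It recovered 12% of genes set to change by 1.5-fold, 36% by 2-fold and 90% by 4-fold, and 6 of 121 called genes had not been changed. Its acute and chronic libraries were drawn from the control profile, and fewer genes were changed than were called in the data. Its shares can therefore differ from those of the real fit.

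The comparison, its 37 gene lists and its rules were chosen with earlier results of these data known. The lists share members, such as B2m in the class I and damage-associated lists. The same raised gene can therefore count in several lists, and their counts are not separate results. Named genes are up to 12 per direction with the largest called change, no overlap between the groups and at least 10 CPM on average where the gene is higher (leaving out pseudogenes, predicted and mitochondrial genes), then per list the 4 members or fewer with the lowest p, the sort checks and the tested myelin genes. Other genes named were chosen after their values were seen. Some genes that the rule names are not reported here. Reads shared by near-identical genes (H2, Ly6, hemoglobin, Hspa1a and Hspa1b) or by antisense partners cannot be told apart. The 14 alternatives were DESeq2 1.42.0, its size factors in edgeR, library totals alone, limma-voom with quality weights (limma 3.58.1), no filter, the 6 libraries alone, the number in the sample titles as a covariate, scaling without the most abundant and mitochondrial genes, and each of the 6 libraries left out. Figures were drawn with matplotlib.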

Additional observations from a re-analysis of the deposited data

How the results depend on the processing

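The 1168 calls (760 higher, 408 lower, 466 and 173 of them over 2-fold) became 1248 with DESeq2, 1167 with DESeq2's size factors, 1339 with limma-voom, 1632 without the filter, 1543 with the 6 libraries alone, 1141 with the title number as a covariate and 1153 without the most abundant and mitochondrial genes. Library totals alone gave 1562 calls, 506 higher and 1056 lower, with 333 lower by more than 2-fold, and 905 genes wholly higher and 3141 wholly lower in remission, against 1804 and 1726 with TMM. The 6 libraries alone gave 659 lower, and the fit without the filter 734 higher by more than 2-fold. Leaving out 1 library at a time gave 752 to 1131 calls, 520 to 816 higher and 231 to 317 lower; control replicates 1, 2 and 3 gave the fewest lower calls, at 265, 231 and 249, and the 752 calls came without control replicate 2. Over 2-fold, these fits gave 350 to 593 higher and 119 to 169 lower. No named gene that was called changed sign under any of the 14 alternatives. No paired analysis was possible because the labels pair no control mouse with a remission mouse. Each of the 6 libraries held 1442371 to 2496096 counts outside the most abundant features and mitochondrial genes. Changes of 1.5-fold and of 2-fold were often missed in the simulation, whose setting differed from the data as stated above.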

Other observations

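Lag3, Pdcd1 and Cd22, chosen after their values were seen, rose in remission. Lag3 stood at 28.3, 27.7 and 30.2 CPM in the control and 214, 189 and 241 CPM in the remission libraries (log2 fold change 2.90 ± 0.25 SE, adjusted p 5.15e-06), Pdcd1, which encodes PD-1, at 1.71, 1.05 and 1.51 CPM in the control and 21, 18 and 7.44 CPM in the remission libraries (log2 fold change 3.43 ± 0.39 SE, adjusted p 9.42e-06), and Cd22, a sialic acid receptor, at 1.56, 2.63 and 2.59 CPM in the control and 29.7, 21.2 and 29.7 CPM in the remission libraries (log2 fold change 3.59 ± 0.33 SE, adjusted p 5.54e-07). Each lay wholly above the controls in all 3 remission libraries.

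Among all 760 raised genes the first remission library was the highest of its group in 299, the second in 224 and the third in 237. Among the 11377 genes not called these numbers were 3879, 3589 and 3909. Across the 12545 genes, which are not independent, Pearson's r was taken on log2 of CPM plus 0.5. It was 0.929 to 0.952 between remission libraries and 0.973 to 0.976 between control libraries. Between a control and a remission library it was 0.905 to 0.933, which overlaps the range between remission libraries.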
